A study of Mus musculus with 12 samples.

Results

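The 10 genes described here load peptides onto MHC class I, and they are a fixed list of symbols (B2m, Tap1, Tap2, Tapbp, Tapbpl, Nlrc5, Erap1, Calr, Canx and Pdia3) taken from the 34547 genes with a summed value. All 10 were present in the per-library transcript estimates and in the rlog table, and all 10 passed the filter on low counts in every comparison. Thymic epithelial cells (TEC) were sorted from mice of 4 to 6 weeks, in pools of 5 to 10 mice per library, as Epcam+ CD45- cells. Cortical TEC (cTEC) were Ly51+ UEA1- and medullary TEC (mTEC) were Ly51- UEA1+. The 12 libraries formed 4 groups of 3, namely WT cTEC, Aβ0/0 cTEC, WT mTEC and Aβ0/0 mTEC. WT mice were purchased C57BL/6 animals, whereas Aβ0/0 mice, in which the MHC class II β chain gene H2-Ab1 is disrupted in every cell, came from another laboratory, so that genotype and colony cannot be told apart. By the study's sorting yields, fewer cells were sorted from Aβ0/0 than from WT mice in both subsets, in every replicate. Fewer cTEC than mTEC were sorted in both genotypes as well. Positive log2 fold changes stand for higher expression in WT, or, between subsets, for higher expression in mTEC.

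MHC class I molecules show peptides of cytosolic origin to CD8+ T cells and, on TEC, to the thymocytes that are selected there. Peptides cut by the proteasome are carried into the endoplasmic reticulum (ER) by the transporter made of TAP1 and TAP2, are shortened by the aminopeptidase ERAP1, and bind a heavy chain that is paired with β2-microglobulin, the product of B2m. Calnexin (Canx) and calreticulin (Calr) hold the folding heavy chain, while tapasin (Tapbp) and the disulfide enzyme ERp57 (Pdia3) join it to the transporter in the peptide-loading complex. TAPBPR (Tapbpl) is a tapasin relative that edits the bound peptides, and NLRC5 is the transactivator of class I genes, as CIITA is of class II genes. NLRC5 acts through an assembly on the SXY module, in which the X2 box resembles a cAMP response element and the Y box holds the letters CCAAT, and interferons act on several of these genes through the interferon-stimulated response element (ISRE).

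Promoters are shown because elements of this kind are known to tie class I genes to NLRC5 and interferon, and ER chaperone genes to ER stress. RefSeq gave a promoter, from 250 bases before to 50 bases after the start, for 7 of the 10 genes (build GRCm38.p6), and the other 3 were Tap2, Tapbpl and Nlrc5. Each promoter was searched on both strands for the ISRE core GAAANNGAA, the X2 or cAMP response core TGACG, the Y box CCAAT and the ER stress element (CCAAT, then 9 free bases, then CCACG, whose first letters are also counted as a Y box). Capitals mark the matches in 4 of them.
B2m (chr2:122147437-122147736, forward strand): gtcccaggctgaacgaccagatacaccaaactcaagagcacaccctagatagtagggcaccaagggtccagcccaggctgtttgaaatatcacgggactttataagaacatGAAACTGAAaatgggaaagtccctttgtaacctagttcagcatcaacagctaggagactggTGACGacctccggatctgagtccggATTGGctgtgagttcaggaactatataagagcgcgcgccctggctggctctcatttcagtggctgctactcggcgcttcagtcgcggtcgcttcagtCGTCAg
Tap1 (chr17:34187306-34187605, forward strand): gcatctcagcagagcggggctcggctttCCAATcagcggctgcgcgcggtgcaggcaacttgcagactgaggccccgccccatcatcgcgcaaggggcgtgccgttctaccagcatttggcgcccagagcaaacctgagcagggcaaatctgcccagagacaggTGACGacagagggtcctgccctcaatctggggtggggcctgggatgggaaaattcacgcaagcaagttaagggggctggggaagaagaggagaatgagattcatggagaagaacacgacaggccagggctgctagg
Erap1 (chr13:74639603-74639902, forward strand): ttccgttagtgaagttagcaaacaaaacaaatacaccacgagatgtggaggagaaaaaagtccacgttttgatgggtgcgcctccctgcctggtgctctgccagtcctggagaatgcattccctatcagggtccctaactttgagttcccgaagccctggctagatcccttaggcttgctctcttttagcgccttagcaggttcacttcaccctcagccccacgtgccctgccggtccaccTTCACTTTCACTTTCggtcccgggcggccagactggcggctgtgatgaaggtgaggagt
Calr (chr8:84846882-84847181, reverse strand): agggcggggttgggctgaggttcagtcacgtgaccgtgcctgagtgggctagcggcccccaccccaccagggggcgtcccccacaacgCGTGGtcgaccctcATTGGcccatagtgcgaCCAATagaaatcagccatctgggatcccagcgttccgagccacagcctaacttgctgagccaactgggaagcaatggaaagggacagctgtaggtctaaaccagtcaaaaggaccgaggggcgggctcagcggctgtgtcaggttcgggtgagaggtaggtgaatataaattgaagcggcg

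The B2m promoter held an ISRE core from 139 to 131 bases before the start, a TGACG from 78 to 74 bases before it and a reverse Y box from 53 to 49 bases before it. Tap1 had TGACG from 86 to 82 bases before the start and a Y box further up, and no ISRE core in this window. Erap1 held reverse matches to the ISRE core, which overlap each other across the start as TTCACTTTC. The ER stress element was found in Calr, on the reverse strand from 162 to 144 bases before the start, and in Canx, from 145 to 127 bases before it. It occurs in 0.119% of the 32851 promoters of the table, against 8.56% for the ISRE core, 20.8% for TGACG and 37.4% for CCAAT. A Y box was present in 6 of the 7 promoters, with Erap1 as the exception, and TGACG in 4 (B2m, Tap1, Canx and Pdia3).

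The libraries held 21.7 to 36.1 M estimated counts (median 29.6 M), and the lowest count of any of the 10 genes in any library was 426, for Nlrc5 in WT cTEC replicate 3. H2-Ab1 (chr17:34257689-34269419), the disrupted gene, was at 9060, 9640 and 9150 TPM (a level per transcript length, scaled to the library total) in WT cTEC and at 11500, 12000 and 11700 in WT mTEC. In Aβ0/0 it was at 3150, 3960 and 3490 TPM in cTEC and at 2470, 3540 and 3180 in mTEC, so that every Aβ0/0 library was below every WT library and transcripts of the locus were still counted. The subset labels went with their markers: the cTEC proteasome gene Psmb11 was at 172 to 442 TPM in the 6 cTEC libraries and at 5.84 to 12.9 TPM in the 6 mTEC libraries. Aire, the regulator of tissue-restricted antigens in mature mTEC, was at 243 to 626 TPM in WT mTEC and at 56 to 111 TPM in Aβ0/0 mTEC. In such bulk samples, fewer cells of a type and less RNA per cell cannot be told apart.

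Genes of other cell types were present and moved with the groups. The 10 thymocyte genes summed to 239 to 553 TPM in WT cTEC, 649 to 795 in Aβ0/0 cTEC, 69.7 to 147 in WT mTEC and 27.8 to 126 in Aβ0/0 mTEC. The 9 genes of dendritic cells, macrophages and B cells summed to 34.1 to 353, 7.8 to 40.1, 598 to 648 and 108 to 740 TPM in the same order. The 4 granulocyte genes summed to 11.8 to 394, 0.482 to 66.1, 1340 to 1930 and 179 to 401 TPM, again in that order. The dendritic cell, macrophage and B cell sum was nearly all Lyz2 (317 of 320 TPM on average in Aβ0/0 mTEC). Of the granulocyte genes, S100a8 had the highest mean in both mTEC groups. In cTEC it was Ltf, with means of 78.7 TPM in WT and 34.1 TPM in Aβ0/0, against 47.6 and 0.212 TPM for S100a8. The 4 fibroblast genes summed to 1570 to 2360 TPM over the 6 cTEC libraries and to 106 to 252 over the 6 mTEC libraries, which was nearly all Dcn, while the means of Pdgfra, Pdgfrb and Col1a1 were higher in WT mTEC (0.892, 3.69 and 8.11 TPM) than in WT cTEC (0.69, 2.5 and 6.59 TPM). No gene of these lists was at 0 in all libraries. These cells express class I genes too, and their part in the results was not tested.

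Libraries also differed in how values followed transcript length. The slope of log2 TPM, relative to the mean of all libraries, on log2 length over 8850 genes ranged from -0.15 to 0.23 per doubling of length. In each of the 4 groups the library with the lowest slope (WT cTEC replicate 3, Aβ0/0 cTEC replicate 2, WT mTEC replicate 2 and Aβ0/0 mTEC replicate 2) had the highest B2m, whose transcript is 860 bases long, and the lowest Erap1, whose longest is 5644 bases, in counts scaled to library size (CPM). On the TPM scale this did not hold for B2m in Aβ0/0 cTEC and for Erap1 in WT mTEC, where replicate 3 was the highest and the lowest. Removing this trend per library was added as an alternative after the data had been seen.

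On the TPM scale B2m stood far above the other genes. It ranged from 7770 to 13400 TPM in the 6 cTEC libraries and from 11800 to 22400 TPM in the 6 mTEC libraries, and by mean TPM it was the gene of rank 3 in each of the 4 groups. In WT mTEC its level was 24.3 ± 8.03 times (SD, n = 3) that of Calr, the next in order. Calr (298 to 948 TPM) and Pdia3 (259 to 743 TPM) followed, with Calr the higher in 10 of 12 libraries, and in Aβ0/0 cTEC the order of their means was the opposite, at 588 and 594 TPM. Tapbp was next (170 to 468 TPM) and lay below Pdia3 and above Tap2 in all 12 libraries.

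By gene sums, the transporter genes and calnexin lay close together. Mean levels over the 12 libraries were 140 TPM for Tap2, 127 TPM for Tap1 and 119 TPM for Canx. Tap2 was above Tap1 in 9 of 12 libraries, among them 3 of 3 of WT cTEC and of Aβ0/0 cTEC. In mTEC the order was mixed, with Tap1 above Tap2 in 1 of 3 WT and 2 of 3 Aβ0/0 libraries. Tap1 was above Canx in 8 of 12. In coding transcripts alone, group means were 12.3 to 19.4 TPM for Tap2 and 99.2 to 129 TPM for Tap1. Tapbpl was lower (68.5 to 114 TPM) and below Canx in all 12 libraries. Erap1 and Nlrc5 were the lowest and exchanged places: Erap1 was above Nlrc5 in 3 of 3 libraries of WT cTEC and of Aβ0/0 cTEC and in 2 of 3 of WT mTEC, and below it in 3 of 3 of Aβ0/0 mTEC. Among genes with a mean of at least 1 TPM, Nlrc5 was at percentile 42.2 in WT cTEC, 47.7 in Aβ0/0 cTEC, 67.9 in WT mTEC and 80.4 in Aβ0/0 mTEC.

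**Figure D1:**
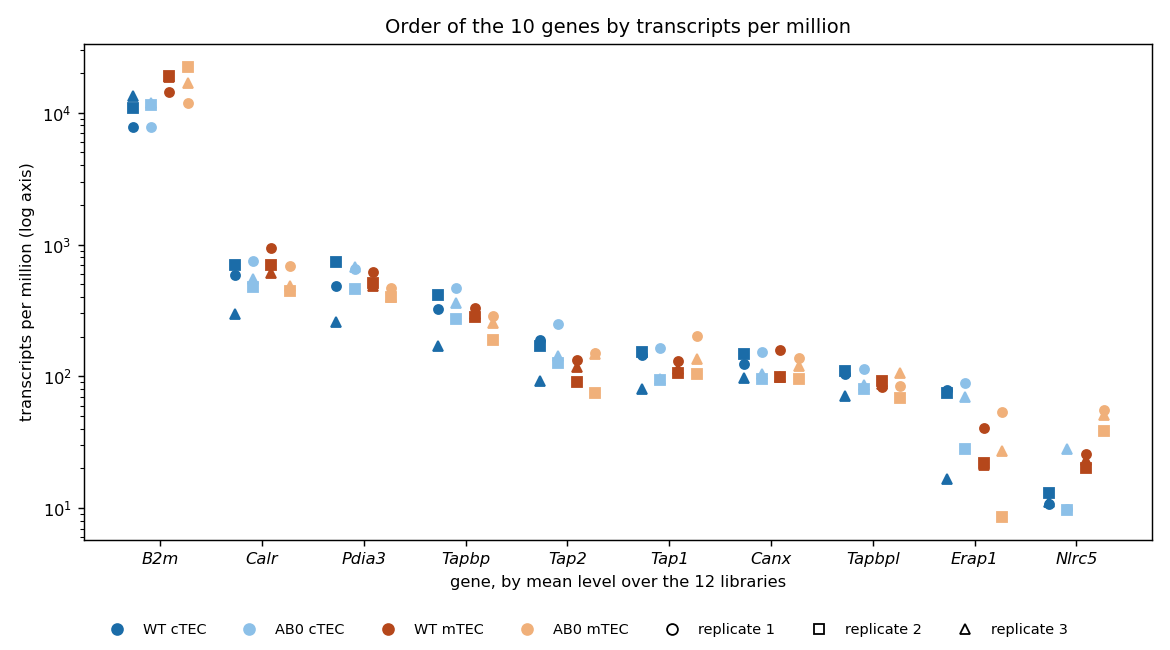
Level of each of the 10 genes in TPM (log axis), ordered by the mean over the 12 libraries, with color for the group (AB0 stands for Aβ0/0) and symbol for the replicate number. B2m lies between 7770 and 22400 TPM, above all other genes in every library, while Erap1 (8.53 to 88.8 TPM) and Nlrc5 (9.61 to 55.9 TPM) spread most.

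The comparison of genotypes within mTEC asked whether loss of class II goes with a change of the class I loading genes. None of the 10 genes passed the test in WT against Aβ0/0 mTEC (edgeR, adjusted p below 0.05), where 5.66% of the 18636 genes tested passed. DESeq2 called 0 of the 10 as well, with 9.81% of all genes called. At an unadjusted edgeR p below 0.05, 1 of the 10 was called (Nlrc5), against 15.3% of all genes. For 3 of the 10 (Nlrc5, Tap1 and Calr) the 3 WT and the 3 Aβ0/0 libraries did not overlap in CPM (estimated counts scaled to library size with TMM), which held for 26.6% of all genes. The median log2 fold change of the 10 was -0.11, and that of all genes tested was 0.

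Nlrc5, the transactivator, was at 70.3, 51.4 and 44.7 CPM in WT mTEC and at 119, 88.9 and 80.3 CPM in Aβ0/0 mTEC. All 3 Aβ0/0 libraries were above all 3 WT libraries. The log2 fold change of WT over Aβ0/0 was -0.82 (SE 0.26, 95% CI -1.44 to -0.19), with an edgeR p of 0.0176 and an adjusted p of 0.178. It passed the threshold in 3 of 16 alternatives, at -1.03 (adjusted p = 0.0461) for limma on log2(TPM + 1), -0.90 (adjusted p = 0.0203) for limma on the deposited rlog values and -1.16 (adjusted p = 0.0353) for counts made from TPM. It did not pass with the length trend removed per library (-0.70, adjusted p = 0.138), and over all alternatives the log2 fold change lay between -1.16 and -0.61.

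Tap1, a chain of the peptide transporter, was at 254, 246 and 250 CPM in WT mTEC and at 398, 284 and 316 CPM in Aβ0/0 mTEC. The WT libraries were within 4.22 CPM (SD) of each other and all lay below the Aβ0/0 libraries, which spread by 58.6 CPM (SD). The log2 fold change was -0.44 (SE 0.19, 95% CI -0.88 to 0.01, adjusted p = 0.334 by edgeR), and without Aβ0/0 mTEC replicate 1, the highest library, it was -0.27 (adjusted p = 0.3). Its partner Tap2 was at 236, 197 and 242 CPM in WT mTEC, against 268, 191 and 318 CPM in Aβ0/0 mTEC. These ranges overlapped, and the log2 fold change was -0.23 (SE 0.23, adjusted p = 0.765).

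Calr, the soluble lectin chaperone of the ER, was at 1200, 1050 and 902 CPM in WT mTEC and at 826, 839 and 715 CPM in Aβ0/0 mTEC. The groups did not overlap, with WT the higher, and the log2 fold change was 0.39 (SE 0.17, 95% CI -0.03 to 0.80, adjusted p = 0.361). The other 6 genes overlapped between genotypes. Their log2 fold changes were -0.13 for B2m, -0.17 for Erap1, -0.09 for Canx, -0.08 for Tapbpl, 0.18 for Tapbp and 0.19 for Pdia3, with 95% intervals that reached from -1.10 at the lowest to 0.76 at the highest (both for Erap1). B2m and Erap1 were thus measured least precisely, with SE of 0.36 and 0.39, and Tapbp and Pdia3 best, with SE of 0.16.

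**Figure D2:**
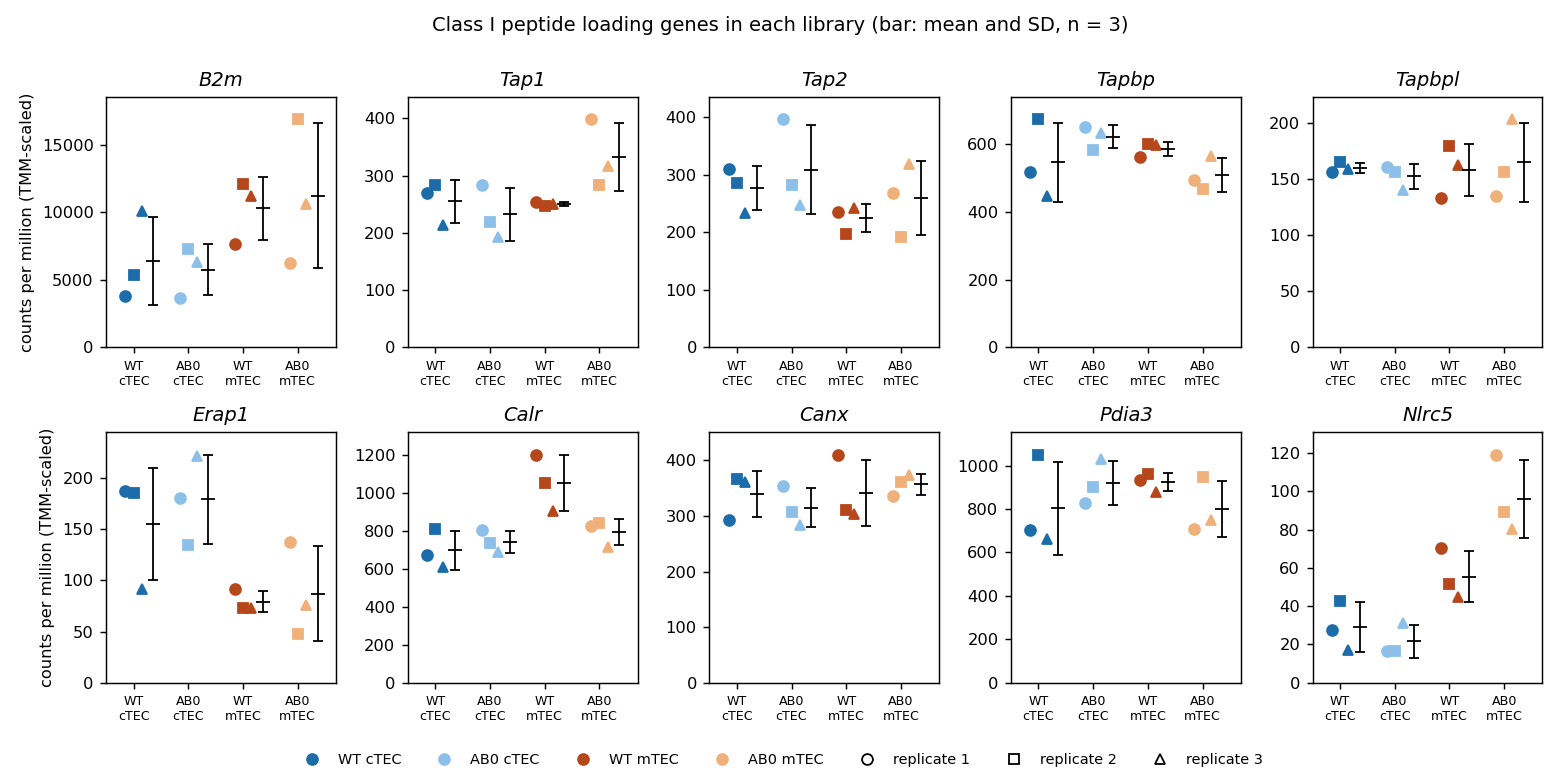
TMM-scaled CPM of the 10 genes in each of the 12 libraries, with symbols for the replicate number and a bar at the mean with SD (n = 3) for each group, AB0 standing for Aβ0/0. Nlrc5 is lowest in cTEC (16.6 to 42.9 CPM) and highest in Aβ0/0 mTEC (80.3 to 119 CPM), while Erap1 and B2m spread widely within groups.

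In cTEC fewer genes separated the genotypes, among the 10 and among all genes. None of the 10 genes was called by edgeR (0.0194% of the 15432 genes tested) or by DESeq2 (0.397%), none had an unadjusted edgeR p below 0.05 (2.16% of all genes), and none separated the 3 WT from the 3 Aβ0/0 libraries (7.83% of all genes). H2-Ab1, the disrupted gene, did not pass edgeR in cTEC either (1.47, adjusted p = 0.695), so a lack of calls there does not show a lack of difference. The median log2 fold change of the 10 was 0.01, against 0.06 for all genes. The largest was that of Nlrc5, which was at 27.7, 42.9 and 17.0 CPM in WT cTEC and at 16.6, 16.8 and 31.4 CPM in Aβ0/0 cTEC. These values overlapped, and the log2 fold change was 0.45 (SE 0.46, 95% CI -0.59 to 1.49, adjusted p = 1). It was -0.25 for limma on log2(TPM + 1), so that no direction can be given. The other 9 genes lay between -0.19 (Erap1) and 0.18 (B2m), and with B2m at an interval of -0.78 to 1.14 differences of this size were not detectable at this spread.

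The genotype effect in mTEC minus that in cTEC was tested over all 12 libraries. None of the 10 genes passed in edgeR (0.0103% of the 19461 genes tested) or in DESeq2 (1.41%), and 1, Nlrc5, had an unadjusted p below 0.05 (6.90% of all genes). For Nlrc5 the difference was -1.22 on the log2 scale (SE 0.53, 95% CI -2.38 to -0.07, adjusted p = 0.682 by edgeR), and for Tap1 it was -0.55 (SE 0.30, adjusted p = 0.797). Calr (0.50), Pdia3 (0.40) and Tapbp (0.39) had values above 0, with adjusted p of 0.802, 0.916 and 0.889.

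**Figure D3:**
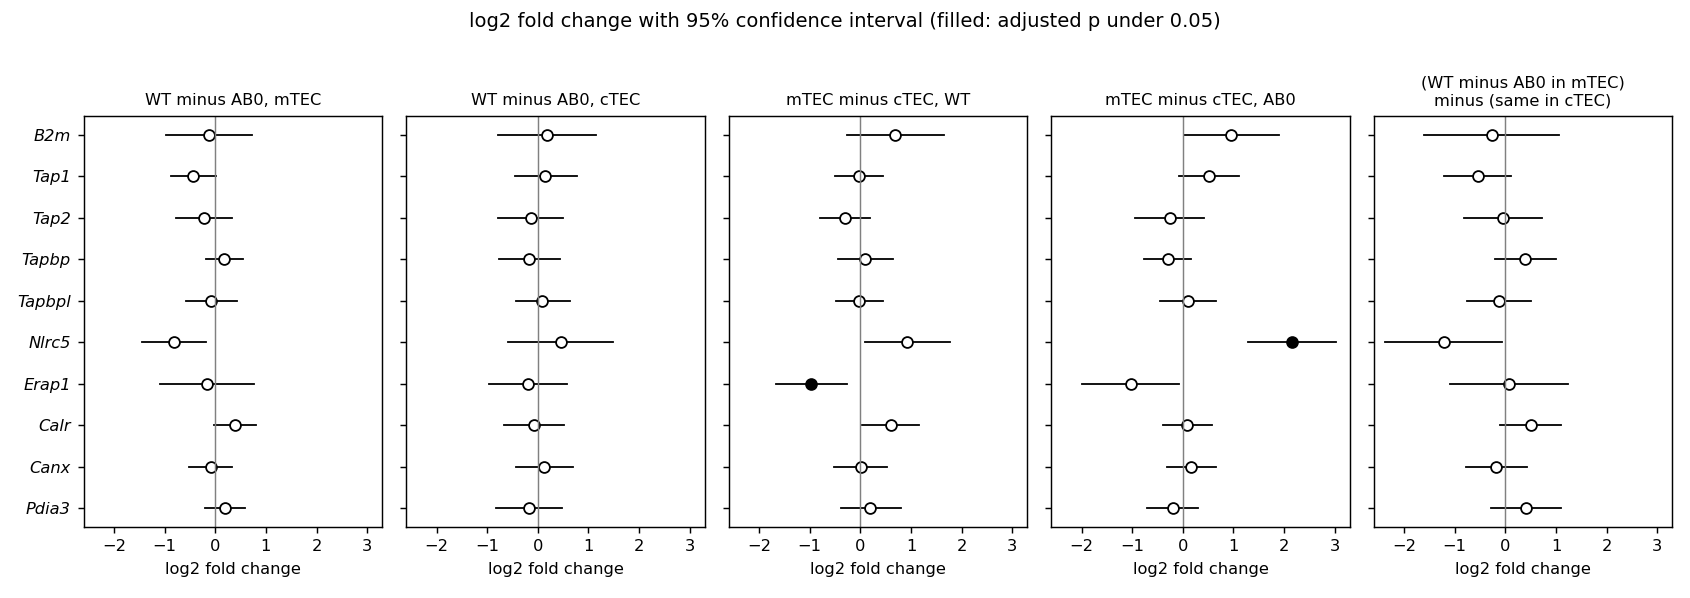
log2 fold change (horizontal axis) with its 95% confidence interval for the 10 genes in the genotype comparisons, the subset comparisons and the difference of the genotype effects, from edgeR, with AB0 for Aβ0/0 and filled points for an adjusted p below 0.05. Only Erap1 between WT subsets (-0.97) and Nlrc5 between Aβ0/0 subsets (2.15) are filled.

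The comparison of subsets within WT asked how mTEC and cTEC differ in the same genes. Of the 10, edgeR called 1 (Erap1), where 26.8% of the 18667 genes tested were called, and DESeq2 called 2 (Erap1 and Calr), against 33.9%. At an unadjusted edgeR p below 0.05 the count was 3 (Erap1, Nlrc5 and Calr), against 37.2% of all genes, and the same 3 did not overlap between subsets, against 47.2%. The median log2 fold change was 0.06 for the 10 genes and for all genes.

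Erap1, the aminopeptidase that trims peptides in the ER, was at 187, 186 and 92.1 CPM in WT cTEC and at 91.3, 73.2 and 73.3 CPM in WT mTEC. It fell in mTEC by 0.97 on the log2 scale (SE 0.30, 95% CI -1.66 to -0.27, adjusted p = 0.0488 by edgeR), with WT cTEC replicate 3 just above the highest mTEC library. The subsets of a replicate number were taken to come from the same sorting, which the labels do not state. The fit with that pool as a block gave -0.90 with an adjusted p of 0.0557. Without WT cTEC replicate 3 the log2 fold change was -1.24 (adjusted p = 0.00163), and without any other library the adjusted p lay between 0.102 and 0.167. With the length trend removed it was -0.78 (adjusted p = 0.0455), but limma gave -0.78 on log2(TPM + 1) with an adjusted p of 0.388 and -0.57 on rlog with an adjusted p of 0.357. Cast lies on the opposite strand and shares 11.5% of the Erap1 exon bases, and the library kit does not keep the strand.

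In WT, Nlrc5 was at 27.7, 42.9 and 17.0 CPM in cTEC and at 70.3, 51.4 and 44.7 CPM in mTEC. The mTEC libraries were all above the cTEC libraries, with a log2 fold change of 0.93 (SE 0.36, adjusted p = 0.101). It passed the threshold with limma on rlog (0.91, adjusted p = 0.00878) and without WT cTEC replicate 2 (1.29, adjusted p = 0.0318), in 4 of 16 alternatives in all, and without 1 library at a time it lay between 0.65 and 1.29. Calr was at 671, 810 and 611 CPM in cTEC and at 1200, 1050 and 902 CPM in mTEC. Its libraries did not overlap either, and the log2 fold change was 0.60 (SE 0.24, adjusted p = 0.111 by edgeR and 0.0155 by DESeq2).

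B2m, the light chain of class I, was at 3770, 5350 and 10100 CPM in WT cTEC and at 7680, 12100 and 11200 CPM in WT mTEC. Replicate 3 of cTEC lay within the mTEC values, and the log2 fold change was 0.69 (SE 0.41, adjusted p = 0.267). Without that library it was 1.18 (adjusted p = 0.0151), the only 1 of 16 alternatives to pass, without WT cTEC replicate 1 it was 0.42 (adjusted p = 0.488), and with the length trend removed it was 0.37 (adjusted p = 0.282). The remaining 6 genes differed by -0.30 (Tap2) to 0.20 (Pdia3) on the log2 scale, with adjusted p of 0.369 or more.

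Within Aβ0/0, 1 of the 10 genes was called between subsets by edgeR (Nlrc5), where 5.6% of the 15687 genes tested were called, and the same single gene by DESeq2, against 13.4%. At an unadjusted edgeR p below 0.05 there were 3 (Nlrc5, B2m and Erap1), against 17.8% of all genes, and 2 did not overlap (Nlrc5 and Tapbp), against 28% of all genes. The median log2 fold change was 0.10 for the 10 genes and 0.03 for all genes.

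Nlrc5 was at 16.6, 16.8 and 31.4 CPM in Aβ0/0 cTEC and at 119, 88.9 and 80.3 CPM in Aβ0/0 mTEC. It rose in mTEC by 2.15 on the log2 scale, 4.45-fold (SE 0.37, 95% CI 1.29 to 3.02, adjusted p = 0.0196 by edgeR and 8.5e-06 by DESeq2). On the length-corrected scale of log2(TPM + 1), limma gave 1.71 (adjusted p = 0.0583). With the pool as a block the value was 2.2 with an adjusted p of 0.0507. Without 1 library at a time the log2 fold change was 1.90 to 2.49 and the adjusted p 0.0300 to 0.0817, below 0.05 only without Aβ0/0 cTEC replicate 3. The thymocyte sums given above were lower in the subset with more Nlrc5. The granulocyte sum was higher in it (179 to 401 TPM, against 0.482 to 66.1 in cTEC) and so was Lyz2 (104 to 740 TPM, against 7.19 to 38.3), while Itgax, Adgre1 and Clec9a were listed at 0 in all 3 libraries of it.

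In Aβ0/0, B2m was at 3640, 7300 and 6300 CPM in cTEC and at 6240, 16900 and 10600 CPM in mTEC. The ranges overlapped, but each mTEC library was above the cTEC library of its number. The log2 fold change was 0.96 (SE 0.41, adjusted p = 0.272), and with the pool as a block it was 0.91 with an adjusted p of 0.0353. Without Aβ0/0 mTEC replicate 2 it was 0.54 (adjusted p = 0.572), and no fit without 1 library passed. Erap1 was at 181, 135 and 222 CPM in cTEC and at 138, 48.0 and 75.7 CPM in mTEC, with a log2 fold change of -1.03 (SE 0.42, adjusted p = 0.246). Its ranges overlapped too, each mTEC library was below the cTEC library of its number, and with the pool as a block the value was -1.15 with an adjusted p of 0.117. Tapbp, which anchors the class I molecule to the transporter, was at 652, 585 and 633 CPM in cTEC and at 496, 469 and 566 CPM in mTEC, with a log2 fold change of -0.29 (SE 0.20, adjusted p = 0.532). For Tap1 the value was 0.52 (SE 0.26, adjusted p = 0.362), and for Tap2 -0.26 (SE 0.29, adjusted p = 0.724). The comparisons of subsets share no library with each other, but each shares its libraries with the comparisons of genotypes.

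The transcripts behind these sums were of several kinds. B2m and Tapbpl have 1 annotated transcript with a value each. In Tapbp, Calr, Canx, Pdia3 and Erap1, 1 protein-coding transcript held 72.1% to 92.4% of the TPM of the gene on average. Tap1 was split between Tap1-206 (30.8 to 103 TPM) and Tap1-201 (16.4 to 67.9 TPM), both coding. In Tap2, 88.8% of the TPM on average was assigned to Tap2-202, annotated as a retained intron, and between 6.91 and 22.9 TPM to the full coding transcript Tap2-201.

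Nlrc5 had no steady transcript. The transcript of largest average share, Nlrc5-203, is a retained intron of 1727 bases at the 3′ end of the gene, and its share of the Nlrc5 TPM ran from 0.0717% to 76.9% between libraries. The full-length coding transcript Nlrc5-207 (7578 bases) held from 0% to 61.4%. Coding transcripts of at least 2000 bases summed to 5.25, 8.15 and 0.322 TPM in WT cTEC, 2.79, 1.49 and 5.42 in Aβ0/0 cTEC, 10.7, 5.47 and 3.57 in WT mTEC and 18.7, 4.92 and 6.82 in Aβ0/0 mTEC. On these transcripts alone the genotypes overlapped in mTEC, and so did the subsets in Aβ0/0. With shorter coding transcripts included, the sums were 2.87, 1.49 and 5.42 TPM in Aβ0/0 cTEC and 28.3, 9.56 and 6.82 in Aβ0/0 mTEC, which did not overlap. In WT they were 7.1, 9.39 and 0.61 TPM in cTEC and 10.7, 16.3 and 9.99 in mTEC, so that the subsets did not overlap there either, while the genotypes in mTEC did. By estimated counts, the quantity tested above, the coding Nlrc5-207 had the largest average share (49.8%), and all coding transcripts together held 68.8% on average and 15.4% to 98.2% between libraries. Whether the Nlrc5-203 values stand for RNA of that kind or for how kallisto assigned the reads was not tested.

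In WT cTEC replicate 3 several short transcripts of the loading genes had their lowest shares. Pdia3-203, annotated for nonsense-mediated decay, held 1.75% of the Pdia3 TPM there and 13.5% to 30.3% in the other 11 libraries. Calr-204, a retained intron, held 2.6% of the Calr TPM in that library and 15.8% to 24.1% in the others. Tapbp-204 (7.36%) and Calr-203 (0.0231%) were also at their lowest there, whereas Pdia3-202 (736 bases) had its highest share, 4.24%.

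**Figure D4:**
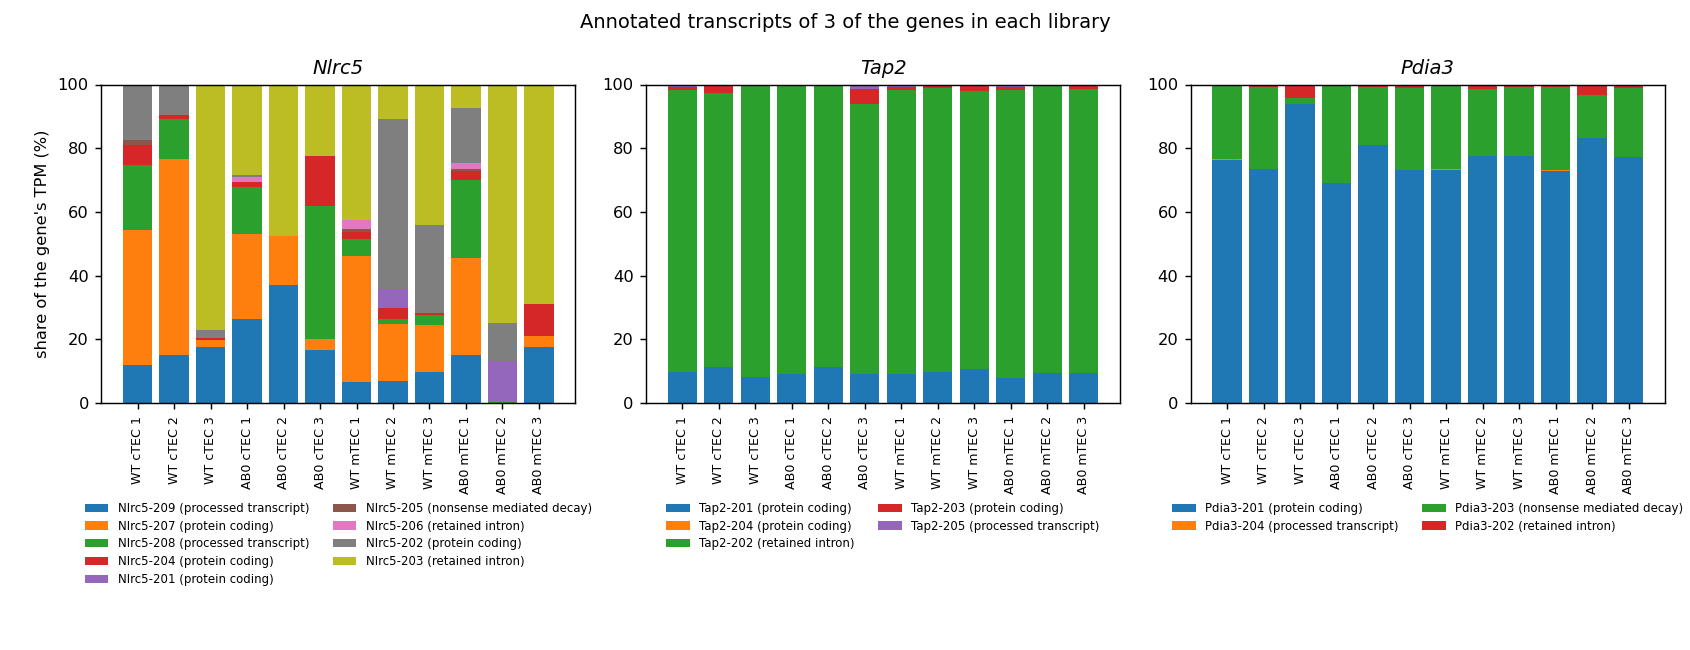
Share of the TPM of Nlrc5, Tap2 and Pdia3 held by each annotated transcript (colors, with the annotated type) in each of the 12 libraries, AB0 standing for Aβ0/0. The Nlrc5 transcripts change from library to library, Tap2-202 holds 84.7% to 91.8% of Tap2 throughout, and Pdia3-203 falls to 1.75% in WT cTEC replicate 3.

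Of the 10 genes, 3 lie near the disrupted gene on chromosome 17. Tap2 (chr17:34203527-34216321) starts 54.2 kb and Tap1 (chr17:34187553-34197225) 70.1 kb before H2-Ab1, and Tapbp (chr17:33915899-33929292) 341.8 kb before it, on build GRCm38. Of the 59 genes tested in mTEC within 500 kb of the start of H2-Ab1, 2 passed, H2-Ab1 itself (1.81, adjusted p = 0.0352) and the class II gene H2-Eb2 (1.97, adjusted p = 0.0352), both higher in WT, against 5.66% of all genes tested. With a replicate block, which left 0 genes called in mTEC, both calls were lost. In cTEC 0 of 51 passed there by edgeR, with 1 at an unadjusted p below 0.05. The loading genes there had log2 fold changes of -0.44 (Tap1), -0.23 (Tap2) and 0.18 (Tapbp) in mTEC and of 0.15, -0.14 and -0.17 in cTEC. All Aβ0/0 libraries share the altered locus and its flanks, so an effect of that segment on Tap1 or Tap2 and an effect of missing class II protein cannot be told apart. Tap1 also shares 3.87% of its exon bases with Psmb9 on the opposite strand, and Psmb9 had a log2 fold change of -0.20 (adjusted p = 0.816) between genotypes in mTEC.

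**Figure D5:**
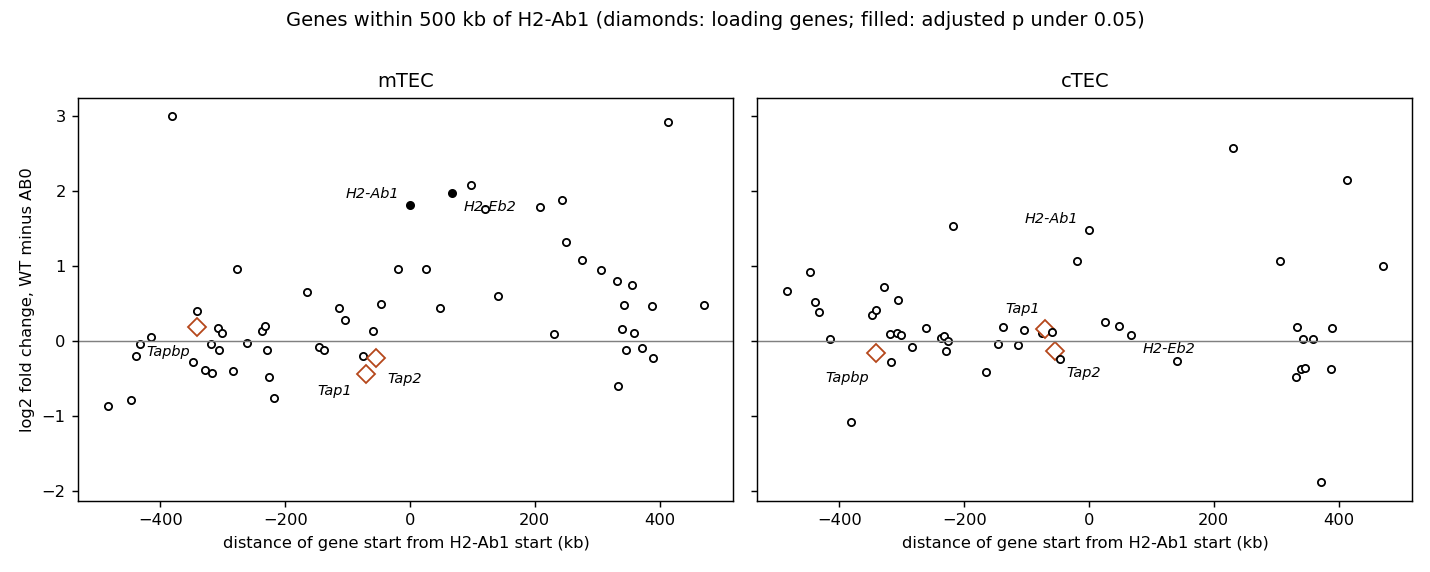
log2 fold change of WT over Aβ0/0 (AB0) for genes tested within 500 kb of H2-Ab1, against the distance of their starts in kb, in mTEC and in cTEC, with diamonds for the loading genes and filled points for an adjusted p below 0.05. Tap1, Tap2 and Tapbp lie between -0.44 and 0.18 in both subsets, and in mTEC H2-Ab1 and H2-Eb2 are filled.

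Around the loading step, 37 other class I pathway genes were followed, in the order proteasome and activator, cytosolic peptidases, heavy chains, ER folding and transcription. Between genotypes none of the 37 passed in mTEC or in cTEC by edgeR, where 5.66% and 0.0194% of all genes passed. At an unadjusted p below 0.05 there were 4 and 0 of the 37, against 15.3% and 2.16% of all genes. Among the 4 were the cytosolic peptidase Tpp2 (-0.69, adjusted p = 0.24), the ER chaperone Hspa5 (0.82, adjusted p = 0.298) and the immunoproteasome subunit Psmb10 (0.41, adjusted p = 0.309). None of the 37 passed for the genotype effect in mTEC minus that in cTEC, and 2 had an unadjusted p below 0.05 (6.90% of all genes), among them Hspa5 (1.12, SE 0.48).

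Between WT subsets, 1 of the 37 rose in mTEC and 3 fell, where 26.8% of all genes were called. The proteasome activator subunit Psme2 rose (1.13, adjusted p = 0.0136), and the NF-κB subunit Nfkb1 (-1.67, adjusted p = 0.0016), the immunoproteasome subunit Psmb9 (-1.09, adjusted p = 0.021) and the glycoprotein folding sensor Uggt2 (-1.34, adjusted p = 0.0366) fell. In Aβ0/0, where 5.6% of all genes were called, 2 of the 37 fell in mTEC, Nfkb1 (-1.27, adjusted p = 0.0498) and the interferon regulatory factor Irf1 (-0.95, adjusted p = 0.0428). The heavy chain genes H2-K1 (0.68, adjusted p = 0.121) and H2-D1 (0.59, adjusted p = 0.176) did not pass there. The median log2 fold changes of the 37 were 0.03 in WT and 0.09 in Aβ0/0, against 0.06 and 0.03 for all genes.

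Patterns over the 12 libraries were compared on the deposited rlog values among 15598 genes with a mean of at least 1 TPM, as a description only, since the libraries fall into 4 groups and share the length trend. The genes most like Calr were Smox (Pearson r = 0.951), Sgk3 (0.946) and Hsp90b1 (0.942), the last an ER chaperone. For Nlrc5 they were Smtnl2 (0.933), Hacd3 (0.923) and Rgs19 (0.92), for Tap1 Limd1 (0.91), Ctnnd1 (0.901) and Man1a (0.896), and for B2m Zan (0.985), Atrip (0.984) and Wdr60 (0.974). On deviations from the group means, the most like gene was Hspa8 for Calr (0.951), Gm45871 for Nlrc5 (0.943), Inpp5b for Tap1 (0.994) and Lamtor3 for B2m (0.994). Within the 10 genes, B2m and Erap1 ran in opposite directions (r = -0.92 over the libraries and -0.91 on deviations), and Tapbp and Pdia3 together (0.81 and 0.76). Tap1 and Tap2 had r = 0.26 over the libraries and 0.77 on deviations from the group means.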

How the data were processed

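RNA of 12 sorted TEC pools was made into libraries with the SMART-Seq v4 kit, which is not stranded. Per the labels, reads were processed with bcl2fastq 2.20.0, Trim Galore and kallisto 0.43 (mm10). The deposited estimated counts and TPM are kallisto values per transcript, and the deposited log2 values are an rlog table made by the authors with DESeq2. Of 109282 transcripts, 107987 were matched to GENCODE M21 (GRCm38), and the others (0.45% to 0.512% of counts) were left out. Estimated counts were summed to 34547 genes and rounded.

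Groups were compared with edgeR 4.0.16 (quasi-likelihood, TMM, filterByExpr, R 4.3.3), with Benjamini-Hochberg adjustment over all genes tested and a threshold of 0.05, after tests on simulated data. Alternatives were DESeq2 1.42.0, limma 3.58.1 on log2(TPM + 1) and rlog, other filters and scalings, a replicate block and leaving out each library. CPM were TMM-scaled over the 12 libraries. Members, lists and tests were chosen with earlier results of these data known. All members were named, and of the other pathway genes those that passed or had the smallest p, except 1 that is not reported here. Same-numbered cTEC and mTEC of a genotype were taken as paired because the study lists both yields by sorting. The labels do not state this pairing. Deviations of the paired libraries correlated by 0.219, 0.0381 and 0.0822 in WT and 0.24, 0.0912 and 0.0546 in Aβ0/0. In WT, mTEC replicate 2 was most like cTEC replicate 3. The study describes the pools as biological replicates, and p-values measure the spread between them. By BLAST 2.17.0 (at least 90% identity), Tapbpl shared stretches of at most 212 bases with 72 other genes, and Calr 495 bases with a pseudogene.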

Additional observations from a re-analysis of the deposited data

How the results depend on the processing

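Over 850 comparisons of a log2 fold change of the 10 genes with an alternative, 758 kept their direction and side of the threshold, 19 lost the threshold, 10 reached it and 63 changed sign, and none of the values that changed sign was past the threshold. The cause of these differences was not tested.

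Between genotypes in mTEC the count of genes called was 0 and became 1 (Nlrc5) with limma on log2(TPM + 1), limma on rlog and edgeR on counts made from TPM, the last added after the data had been seen. It stayed at 0 under the other alternatives, as it did under all of them in cTEC and for the difference of the genotype effects. Between WT subsets the count of 1 became 0 with RLE size factors, in the fit of all 12 libraries and with the replicate block, and 2 with DESeq2. It was 1, but for Nlrc5 in place of Erap1, with limma on log2(TPM + 1), limma on rlog and counts made from TPM. Without 1 library at a time it lay between 0 and 2. Between Aβ0/0 subsets the count of 1 became 0 with limma on log2(TPM + 1) and with counts made from TPM, stayed at 1 with the block but for B2m in place of Nlrc5, and lay between 0 and 1 without 1 library at a time. Across genotypes, same-numbered libraries correlated in their deviations from the group means by 0.232, 0.0799 and 0.0526 in mTEC and 0.245, -0.0391 and 0.0576 in cTEC, and not every library was most like that of its own number. There the replicate block changed no call of the 10 genes, while it left 0 of the 1054 genes of the whole table called in mTEC, so that the calls of H2-Ab1 and H2-Eb2 were lost. The number of genes of the whole table called in mTEC also fell to 27 with no filter on low counts, to 11 with a mean of at least 10 counts and to 20 in the fit of all 12 libraries, rose to 1782 with DESeq2, and lay between 0 and 2377 without 1 library at a time (highest without Aβ0/0 mTEC replicate 1). In cTEC, 3 genes were called and 61 with DESeq2.

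Signs of values near 0 changed as follows. With limma on log2(TPM + 1), the genotype values in mTEC were 0.07 for B2m, 0.04 for Tapbpl and 0.19 for Erap1, that in cTEC was -0.25 for Nlrc5, the subset values were -0.07 for Canx in WT and -0.12 for Tapbpl and -0.13 for Calr in Aβ0/0, and the differences of the genotype effects were 0.03 for B2m, 0.12 for Tap2 and 0.02 for Tapbpl. With limma on rlog they were 0.05 for B2m, 0.02 for Tapbpl and 0.16 for Erap1 in mTEC, -0.19 for Nlrc5 in cTEC, 0.07 for Tap1 and 0.03 for Tapbpl between WT subsets, and 0.06 for the difference of Tap2. With RLE size factors and with DESeq2 alike they were 0.01 for Tap1 and 0.02 for Tapbpl between WT subsets and 0.03 for the difference of Tap2. Canx between WT subsets was -0.02 with no filter and -0.00 with the replicate block, Tap1 there was 0.01 with the length trend removed, and Nlrc5 between genotypes in cTEC was -0.34 with counts made from TPM.

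Without 1 library at a time, the ranges that crossed 0 were between genotypes in mTEC -0.41 to 0.27 for B2m, -0.19 to 0.10 for Tapbpl, -0.47 to 0.35 for Erap1 and -0.24 to 0.02 for Canx. They were between genotypes in cTEC -0.31 to 0.44 for B2m, -0.28 to 0.10 for Tap2, -0.38 to 0.07 for Erap1 and -0.24 to 0.01 for Calr. They were between WT subsets -0.15 to 0.03 for Tap1, -0.02 to 0.26 for Tapbp, -0.12 to 0.07 for Tapbpl and -0.17 to 0.08 for Canx. They were between Aβ0/0 subsets -0.08 to 0.18 for Tapbpl. They were for the difference of the genotype effects -0.49 to 0.21 for B2m, -0.26 to 0.13 for Tap2, -0.23 to 0.05 for Tapbpl and -0.22 to 0.60 for Erap1.

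B2m over Calr in WT mTEC and the number of genes with a leading transcript of at least 50% of the TPM (9 of 10) did not move beyond their spread with TMM counts per kilobase or with shares of estimated counts. With 3 libraries a group the SE of the genotype values in mTEC was 0.16 to 0.39, so that small differences could not be called.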
